A study of Mus musculus with 12 samples.

Results

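The GADD45 family and 7 genes of p53-dependent growth arrest and cell death were followed through 12 mRNA libraries of J774A.1, a mouse macrophage-like cell line exposed to hypochlorous acid (HOCl). The 10 genes were chosen by their symbols from a table of 28977 gene IDs, with no threshold on any value, but with earlier results for these same libraries known. The values that could have guided that choice are the differences in expression between the groups, so these differences are given as a description and support nothing on their own. All 10 symbols were found, and all 10 passed the filter on low values, 1 FPKM (a read count scaled to exon length and to library size) or more in at least 3 of 12 libraries, as did 12026 IDs in all.

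The 12 libraries form 4 groups of 3. Cells of the first group stayed in cell media and had no HOCl. Cells of the second were given the salt solution HBSS alone, the vehicle control with 0 µM HOCl. Cells of the third and of the fourth were given HOCl in HBSS, at 20 µM and at 100 µM. Treatment lasted 1 h in every group and all cells then spent 24 h in full medium, so the values describe cells a day after exposure. All groups are the same line, with no genetic change named in the labels. The labels do not say that replicates were separate cultures, so the spread behind each p-value here is that among these libraries and may be technical. In bulk RNA, a smaller share of cells that express a gene and less RNA per cell cannot be told apart.

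The protein p53, encoded by Trp53, is a transcription factor that is held at a low level by the ubiquitin ligase Mdm2 and is stabilised after damage to DNA and other stress. It acts mostly through stability and modification of the protein, and its activity is commonly read from its target genes. Cdkn1a encodes p21, the inhibitor of cyclin-dependent kinases that holds cells before DNA replication, and Mdm2 and Ccng1 (cyclin G1) are targets that feed back on p53. Bax and Bbc3 (the BH3-only protein PUMA) encode proteins that promote permeabilisation of the mitochondrial outer membrane, and Trp53inp1 encodes a stress protein that links p53 to cell death and autophagy. The GADD45 proteins are small acidic stress sensors that bind PCNA, p21, the CDK1 and cyclin B1 complex and the kinase MTK1 (Map3k4). Gadd45a is a classical p53 target that is also induced without p53, Gadd45b is known as a gene of NF-kB and TGF-beta signalling, and Gadd45g as one of cytokine signalling.

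The promoter sequences of 4 members are given first, to show the letters of the p53 half-sites and of the composite element that were searched for. No link between these letters and the expression values was tested. Of the 10 members, 9 had a window in the RefSeq promoter table of build GRCm38.p6, which spans 250 bases before and 50 after an annotated start (Trp53inp1 had no entry). Each is printed 5′ to 3′ on the strand of the gene. Capitals mark matches to the p53 half-site consensus (Gadd45a, Cdkn1a and Ccng1) or to the C/EBP-ATF composite element TTGCATCA (Gadd45g).
Gadd45g, chr13:51846425-51846724, plus strand: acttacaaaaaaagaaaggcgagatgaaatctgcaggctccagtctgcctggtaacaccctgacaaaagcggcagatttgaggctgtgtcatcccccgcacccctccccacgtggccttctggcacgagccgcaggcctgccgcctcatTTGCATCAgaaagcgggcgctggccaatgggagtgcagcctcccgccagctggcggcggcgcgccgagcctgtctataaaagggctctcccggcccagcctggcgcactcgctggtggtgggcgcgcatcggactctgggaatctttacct
Gadd45a, chr6:67037358-67037657, minus strand: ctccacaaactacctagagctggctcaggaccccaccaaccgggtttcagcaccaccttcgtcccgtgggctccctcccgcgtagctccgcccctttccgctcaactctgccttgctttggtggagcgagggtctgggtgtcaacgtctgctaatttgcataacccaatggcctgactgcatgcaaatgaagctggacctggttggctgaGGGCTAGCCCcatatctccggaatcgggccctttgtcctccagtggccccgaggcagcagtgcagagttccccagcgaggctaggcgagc
Cdkn1a, upstream start, chr17:29090729-29091028, plus strand: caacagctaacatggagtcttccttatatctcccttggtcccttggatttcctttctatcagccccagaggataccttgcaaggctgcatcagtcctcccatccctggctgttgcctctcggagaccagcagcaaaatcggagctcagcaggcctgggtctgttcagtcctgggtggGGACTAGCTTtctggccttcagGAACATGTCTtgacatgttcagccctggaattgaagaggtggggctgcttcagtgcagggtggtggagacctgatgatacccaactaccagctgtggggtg
Ccng1, chr11:40755237-40755536, minus strand: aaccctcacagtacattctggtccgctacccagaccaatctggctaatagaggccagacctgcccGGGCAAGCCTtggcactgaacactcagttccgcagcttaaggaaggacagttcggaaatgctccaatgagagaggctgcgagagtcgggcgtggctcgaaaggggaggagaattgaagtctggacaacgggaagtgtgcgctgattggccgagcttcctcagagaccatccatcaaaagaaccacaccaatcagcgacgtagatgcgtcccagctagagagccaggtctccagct

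A p53 half-site, 10 bases that read alike on both strands of the consensus, was found in the windows of 6 of the 9 members: Gadd45a, Bax, Mdm2, Ccng1, Trp53 and Cdkn1a. Of all 32851 windows in the table, 8.36% held one, or 9.55% of 27025 genes. A full p53 element, a pair of half-sites at most 13 bases apart, was in 0.0731% of windows, and among the members in that of the upstream Cdkn1a start alone, at bases −73 to −42, where negative positions count bases before the start. The Gadd45g window held no p53 half-site. At bases −101 to −94 it held TTGCATCA (searched with its reverse complement TGATGCAA). This was in no other member's window, and in 0.895% of all windows or 1.03% of genes. The TATA box TATAAA (or TTTATA) was in the windows of Gadd45g, Gadd45b and Trp53 and in 13.6% of all windows (15.7% of genes). CCAAT (or ATTGG) was in those of 7 members, 4 times in Ccng1, and in 37.4% of all windows (41.1% of genes). TGACGTCA, the cAMP response element, was in 0 of the 9 members' windows and in 1.79% of all (2.03% of genes). Apart from the half-sites inside the full element, no matches overlapped in these windows. A match is a description of letters, and no match says only that the letters are not in this window.

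**Figure D1:**
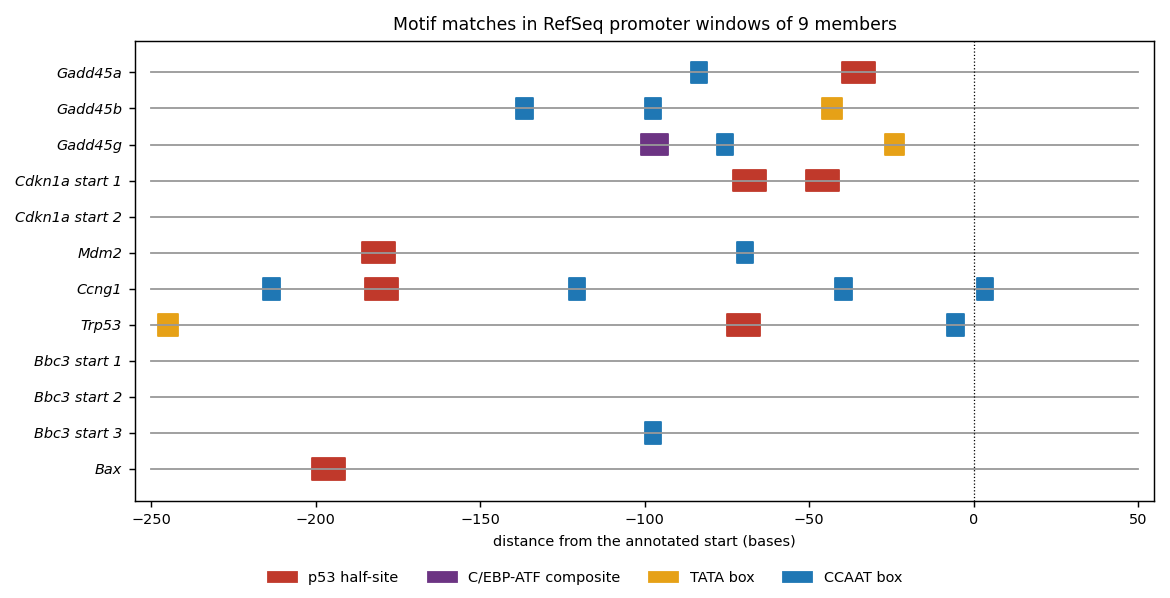
Positions of motif matches in the promoter windows of 9 members, by distance in bases from the annotated start (dotted line at 0), with 1 row for each annotated start. The pair of p53 half-sites at the first Cdkn1a start and the single C/EBP-ATF composite at Gadd45g stand out, and the 3 Bbc3 starts hold a CCAAT box at most.

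The depth behind the values could be recovered. Below 1 FPKM, 98.26% of values times exon length were whole multiples of 1 step within 0.01, where chance gives 2%, and the steps gave library totals of 17683937 to 21408518 reads. At these steps all 120 values of the 10 members were whole reads within 0.01, from 37 reads for Gadd45g in a cell media library to 4485 for Ccng1 at 100 µM. The totals were 17736499 to 18811910 at 100 µM and 19880581 to 21408518 in HBSS. The first and second cell media replicates (1 and 2) were unlike the other 10 libraries. Their log2 values correlated at 0.946 to 0.971 with those of the 10, among which the lowest correlation was 0.974, and 12.9% and 12.8% of their FPKM came from ribosomal protein genes, against 7.61% to 8.53% in the others. The counts of genes past a limma threshold are therefore also given on 10 libraries, without these 2. All 10 macrophage markers of a fixed list were expressed, with a summed level of 4360 to 4930 FPKM at 100 µM, against 3803 to 4169 in HBSS, 3914 to 4158 at 20 µM and 4113 to 4812 in cell media. Lyz2 weighed most in this sum, with 2716 ± 190 FPKM at 100 µM and 2155 ± 137 in HBSS (SD, n = 3 each). The log2 difference between 100 µM and HBSS was above 0 for 8 of the 10 markers and below 0 for 2. The part of the higher sum in the members' differences was not tested. Of the listed markers of other cell types, 10 of 11 stayed under 1 FPKM in every library, with 2 of them at 0 in all 3 libraries at 100 µM and 1 in HBSS. The exception was S100a8, a calcium-binding protein gene abundant in neutrophils, which averaged 15.5 ± 1.4 FPKM at 100 µM and 11.4 ± 1.5 in HBSS (SD, n = 3 each).

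Per length of exon, Bax had the highest mean over the 12 libraries, 65.2 FPKM. It was followed by Ccng1 at 55.1, Gadd45a at 55.1, Trp53 at 43.8, Cdkn1a at 37.8 and Mdm2 at 28.0. Bbc3 at 11.7 and Gadd45b at 11.2 were in the middle range. Gadd45g at 3.25 and Trp53inp1 at 1.37 FPKM were near the lower end of the genes kept, at the 28.0th and the 10.4th percentile by mean level. This order did not hold in every group. Cell media replicates 1 and 2, at 121 and 119 FPKM, raised the mean of Bax. Ccng1 averaged more than Bax in HBSS (54.6 against 50.95 FPKM), at 20 µM (57.4 against 51.5) and at 100 µM (68.5 against 61.05). At 100 µM Gadd45a, at 40.2, was also below Trp53 at 44.4 and Cdkn1a at 40.7. Members with close means (Ccng1 and Gadd45a, or Bbc3 and Gadd45b) changed places between groups as well.

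Gadd45g (ENSMUSG00000021453) was the member with the largest difference between 100 µM HOCl and HBSS. It had 1.74, 2.02 and 1.89 FPKM in cell media, 2.75, 2.53 and 2.10 in HBSS, 2.96, 3.83 and 3.97 at 20 µM HOCl and 5.39, 5.38 and 4.41 at 100 µM HOCl. Every library of a group lay above every library of the group before it in that order. Of 12026 genes, 8 had this pattern over the 4 groups (0.0665%), and 53 had it over HBSS, 20 µM and 100 µM (0.441%), with 1 of the 10 members, Gadd45g, in either count. The reverse pattern, each group below the one before, was found in 3 genes over the 4 groups. Over HBSS, 20 µM and 100 µM it was found in 85 genes, and 0 members were in either of these counts. At 100 µM HOCl it averaged 5.06 ± 0.56 FPKM, against 2.46 ± 0.33 in HBSS (SD, n = 3 each), a ratio of 2.06. The log2 difference of FPKM plus a pseudocount of 1 was 0.81 (SE 0.11, 95% confidence interval 0.56 to 1.06), and 1.01 with a pseudocount of 0.1, which compresses a low gene less. Ranked by limma's p, it stood first of the 12026 genes in this comparison. The limma adjusted p = 0.154 on 12 libraries, and the limma adjusted p = 0.0463 on 10, so it passed the threshold of 0.05 on the 10 libraries and not on the 12. With 1 of the HBSS or 100 µM libraries left out of the 12, the limma adjusted p was 0.369 to 0.738. At 20 µM it averaged 3.59 ± 0.55 FPKM, a log2 difference from HBSS of 0.40 (SE 0.11, interval 0.15 to 0.66, limma adjusted p = 1), and between 100 µM and 20 µM the difference was 0.41 (SE 0.11, interval 0.15 to 0.66, limma adjusted p = 0.825).

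These levels rest on few reads. Gadd45g had 119, 112 and 97 reads at 100 µM, against 69, 59 and 49 in HBSS, and 71, 96 and 91 at 20 µM. The exact 95% Poisson interval of the lowest 100 µM library, 97 reads, ran from 3.58 to 5.38 FPKM, and that of the highest HBSS library, 69 reads, from 2.14 to 3.48 FPKM, so these intervals did not overlap. Those of neighbouring doses did, as the lowest 20 µM library, 71 reads, ran from 2.31 to 3.73 FPKM. Such intervals cover counting error only.

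**Figure D2:**
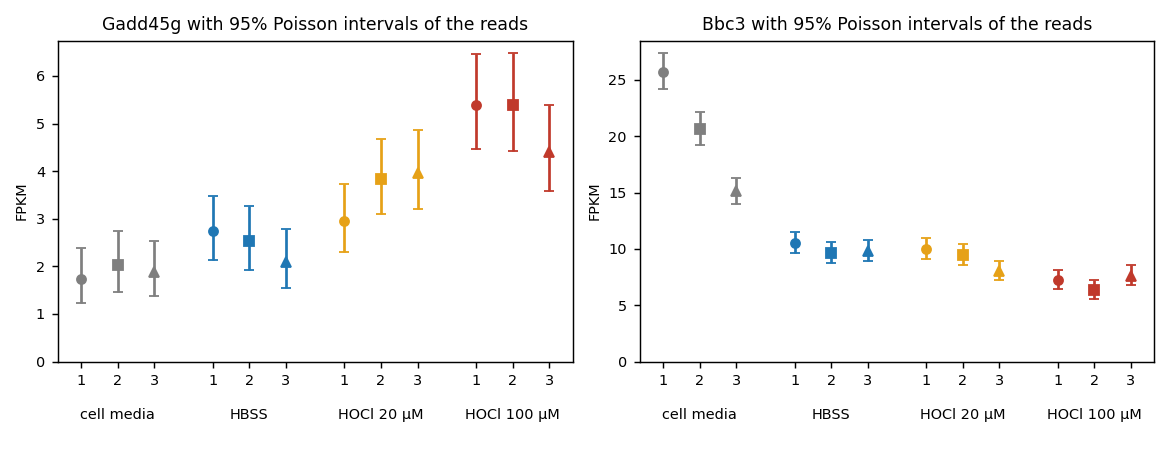
Gadd45g and Bbc3 in FPKM for each of the 12 libraries, with exact 95% Poisson intervals of the recovered reads, in 4 groups of 3 replicates. The Gadd45g libraries at 100 µM, 4.41 to 5.39, lie above those in HBSS, 2.10 to 2.75, while the Bbc3 libraries at 100 µM, 6.37 to 7.64, lie below those in HBSS, 9.64 to 10.6.

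Gadd45a (ENSMUSG00000036390), the most abundant family member in these cells, stood lower at 100 µM HOCl than in HBSS on average. It had 44.2, 33.2 and 43.2 FPKM at 100 µM HOCl, against 65.5, 45.1 and 39.9 in HBSS. The groups overlapped, because HBSS replicate 3 lay below 2 of the 100 µM libraries. The means were 40.2 ± 6.1 at 100 µM and 50.2 ± 13.5 in HBSS (SD, n = 3 each), and the log2 difference was −0.29 (SE 0.21, interval −0.76 to 0.17, limma adjusted p = 0.681). It was −0.088 without HBSS replicate 1, the highest library of that group, and −0.16 without HOCl 100 µM replicate 2. At 20 µM the libraries had 57.7, 50.8 and 40.1 FPKM, close to those in HBSS (log2 difference −0.002, SE 0.21). In each of the 4 groups replicate 1 was the highest of the 3 for Gadd45a. The same held for Mdm2 and Trp53inp1 in the HBSS, 20 µM and 100 µM groups. Replicate 1 was instead the lowest for Ccng1 in each of the 4 groups, and for Cdkn1a, Trp53 and Bax in the HBSS, 20 µM and 100 µM groups. These patterns were seen after the values were examined.

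Gadd45b stood slightly higher at 100 µM HOCl than in HBSS, within the error of the test. It had 11.04, 11.6 and 10.7 FPKM at 100 µM, against 9.05, 10.6 and 9.86 in HBSS, and 9.59, 9.97 and 11.3 at 20 µM. The 100 µM libraries lay just above the HBSS libraries and overlapped with those at 20 µM. The log2 difference between 100 µM and HBSS was 0.16 (SE 0.22, interval −0.32 to 0.64, limma adjusted p = 0.774). This fit shares 1 spread with cell media, where the SD of Gadd45b was 5.26 FPKM. On 10 libraries the SE was 0.072 and the interval −0.002 to 0.327.

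The share of Gadd45g in the family did not overlap between 100 µM and HBSS. Gadd45g made up 7.57% to 10.7% of the summed GADD45 FPKM at 100 µM, against 3.56% to 4.34% in HBSS, with 4.21% to 7.17% at 20 µM and 1.56% to 2.40% in cell media. Gadd45a was the largest part in all 12 libraries, at 66.1% to 74.1% at 100 µM and 76.9% to 84.7% in HBSS. There were 6.16 to 9.78 Gadd45a transcripts for each Gadd45g transcript at 100 µM, against 17.8 to 23.8 in HBSS, as a ratio of FPKM. The summed family level was 50.2 to 60.6 FPKM at 100 µM and 51.9 to 77.3 in HBSS, and these ranges overlapped.

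**Figure D3:**
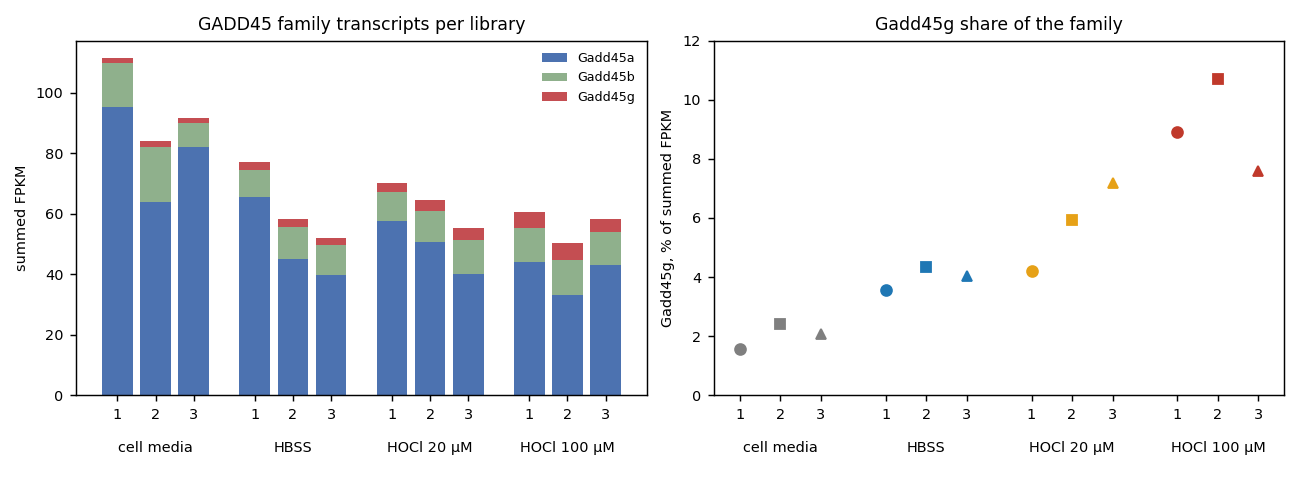
Left, summed FPKM of Gadd45a, Gadd45b and Gadd45g in each library (stacked bars, replicates 1 to 3 in 4 groups). Right, the share of Gadd45g in that sum, in percent, which was 7.57% to 10.7% at 100 µM and 3.56% to 4.34% in HBSS.

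Among the cell cycle members, Ccng1 and Cdkn1a were higher at 100 µM HOCl in every library. Ccng1 had 66.3, 71.0 and 68.1 FPKM at 100 µM, against 50.8, 56.4 and 56.6 in HBSS, and 54.4, 58.7 and 59.1 at 20 µM. The lowest 100 µM library lay above all libraries of the other groups. Its log2 difference between 100 µM and HBSS was 0.32 (SE 0.12, interval 0.05 to 0.60, limma adjusted p = 0.625, and adjusted p = 0.0514 on 10 libraries). Cdkn1a had 39.1, 40.0 and 43.1 FPKM at 100 µM, against 33.5, 35.6 and 34.4 in HBSS, and 33.8, 36.0 and 38.0 at 20 µM. The 100 µM libraries were above both other HBSS-based groups, but cell media replicates 1 and 2 were higher still, at 43.7 and 45.9 FPKM. Its log2 difference between 100 µM and HBSS was 0.23 (SE 0.13, interval −0.05 to 0.51, limma adjusted p = 0.662, and adjusted p = 0.0641 on 10 libraries). On 10 libraries the interval, not adjusted for the number of genes, was 0.11 to 0.36 (SE 0.055).

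For the regulator and its ligase no difference was detectable. Trp53 had 43.2, 43.9 and 46.1 FPKM at 100 µM, against 37.0, 41.9 and 45.2 in HBSS, with a log2 difference of 0.10 (SE 0.14, interval −0.19 to 0.40, limma adjusted p = 0.769). Mdm2 had 29.1, 26.8 and 27.9 FPKM at 100 µM, against 32.7, 27.4 and 28.7 in HBSS, with a log2 difference of −0.077 (SE 0.17, interval −0.46 to 0.31, limma adjusted p = 0.857). Both pairs of groups overlapped. Mdm2 was 29.3 to 32.5 FPKM at 20 µM, above all 3 libraries at 100 µM. Trp53-ps, a pseudogene of Trp53 that may share reads with it, was listed at 0.692 to 2.04 FPKM.

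Of the cell death members, Bbc3 (ENSMUSG00000002083) was lower and Bax higher at 100 µM HOCl. Bbc3 had 7.23, 6.37 and 7.64 FPKM at 100 µM HOCl, against 10.6, 9.64 and 9.82 in HBSS, and 10.0, 9.49 and 8.04 at 20 µM. All 3 libraries at 100 µM lay below those of both other groups, and the 20 µM libraries overlapped with HBSS. The ratio of the means of 100 µM and HBSS was 0.708, and the log2 difference was −0.45 (SE 0.16, interval −0.79 to −0.10, limma adjusted p = 0.625, and adjusted p = 0.0556 on 10 libraries). Bax had 57.1, 63.1 and 63.0 FPKM at 100 µM, against 49.3, 50.8 and 52.8 in HBSS, and 48.8, 53.5 and 52.1 at 20 µM. Its 100 µM libraries lay above both of these groups, and the log2 difference between 100 µM and HBSS was 0.26 (SE 0.25, interval −0.30 to 0.81, limma adjusted p = 0.728, and adjusted p = 0.058 on 10 libraries). As a ratio of FPKM, Bax stood at 7.89 to 9.90 times Bbc3 at 100 µM, against 4.67 to 5.38 in HBSS and 4.87 to 6.47 at 20 µM. This ratio only restates the levels just given. That of Mdm2 to Trp53 overlapped, at 0.605 to 0.674 at 100 µM and 0.634 to 0.886 in HBSS. Trp53inp1 had 1.49, 1.28 and 0.849 FPKM at 100 µM, against 1.67, 1.20 and 1.39 in HBSS, with overlapping groups (log2 difference −0.14, SE 0.17).

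**Figure D4:**
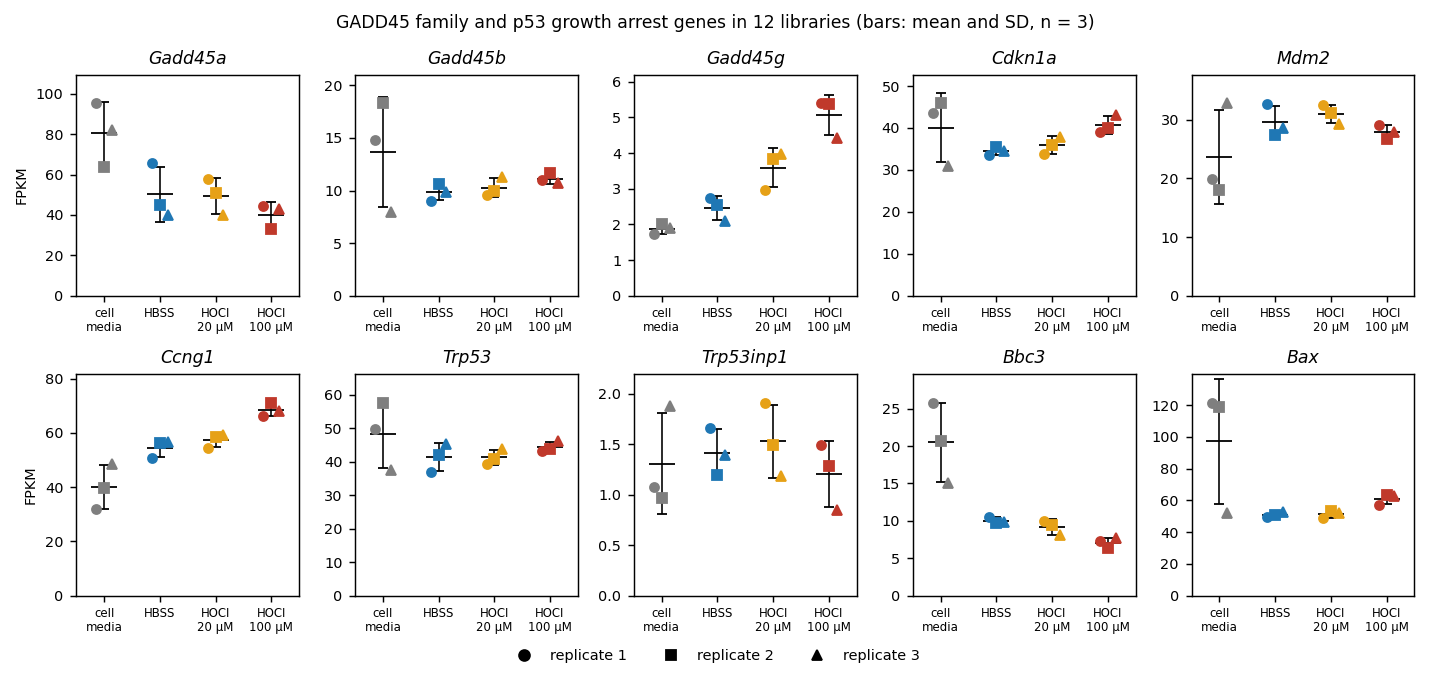
FPKM of the 10 members in each library, by group, with replicates 1 to 3 as circles, squares and triangles and the mean and SD (n = 3) as bars. Each axis starts at 0. Gadd45g and Ccng1 are highest and Bbc3 is lowest at 100 µM, and cell media replicates 1 and 2 are far from replicate 3 for Bax (121 and 119 against 51.8 FPKM).

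The members' counts are set here beside those of all genes. In the comparison of 100 µM HOCl with HBSS, limma called 0 of the 10 members on 12 libraries, where 0% of the 12026 genes were called (limma-voom on the recovered reads also called 0 of each), and 1 member, Gadd45g, on 10 libraries, where 0.241% (29 genes) were called. At an unadjusted p under 0.05 there were 3 members (Gadd45g, Bbc3 and Ccng1) and 7.76% of all genes on 12 libraries, and 5 members and 32.2% of all genes on 10. In 5 members (Gadd45b, Gadd45g, Cdkn1a, Ccng1 and Bax) every 100 µM library lay above every HBSS library, as in 16.5% of all genes, and in 1 (Bbc3) every one lay below, as in 17.6%. The median log2 difference was 0.13 over the members, with 6 above and 4 below 0, and −0.006 over all genes. Since these values may have guided the choice of members, nothing is read from the counts. The 100 µM libraries also had fewer reads than the HBSS libraries, and with each library's trend on exon length removed, an alternative chosen after the data were seen, the log2 difference of Gadd45g was 0.70, that of Bax 0.17 and that of Bbc3 −0.51. The part of depth itself in these results was not tested.

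Between 20 µM HOCl and HBSS, 0 members and 0% of all genes were called on 12 and on 10 libraries, with 1 member (Gadd45g) at an unadjusted p under 0.05 on either set, beside 1.08% of all genes on 12 and 3.08% on 10. Gadd45g was the 1 member with groups that did not overlap, higher at 20 µM as were 4.21% of all genes, and 0 members were lower throughout, as were 3.48%. The log2 differences of the other 9 members ran from −0.12 for Bbc3 to 0.072 for Ccng1. The widest of their 95% intervals on 10 libraries was that of Gadd45a, −0.45 to 0.45. Of 100 µM against 20 µM, 0 members and 0% of genes were called on 12 and on 10 libraries, with 1 member and 4% of all genes at an unadjusted p under 0.05 on 12, and 5 members and 26.2% of all genes on 10. In 4 members (Gadd45g, Cdkn1a, Ccng1 and Bax) every library at 100 µM lay above every library at 20 µM, as in 12.7% of all genes, and in 2 (Mdm2 and Bbc3) below, as in 15.6%. This comparison shares the 100 µM libraries with that against HBSS. In both, limma-voom called 0 members and 0 genes.

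**Figure D5:**
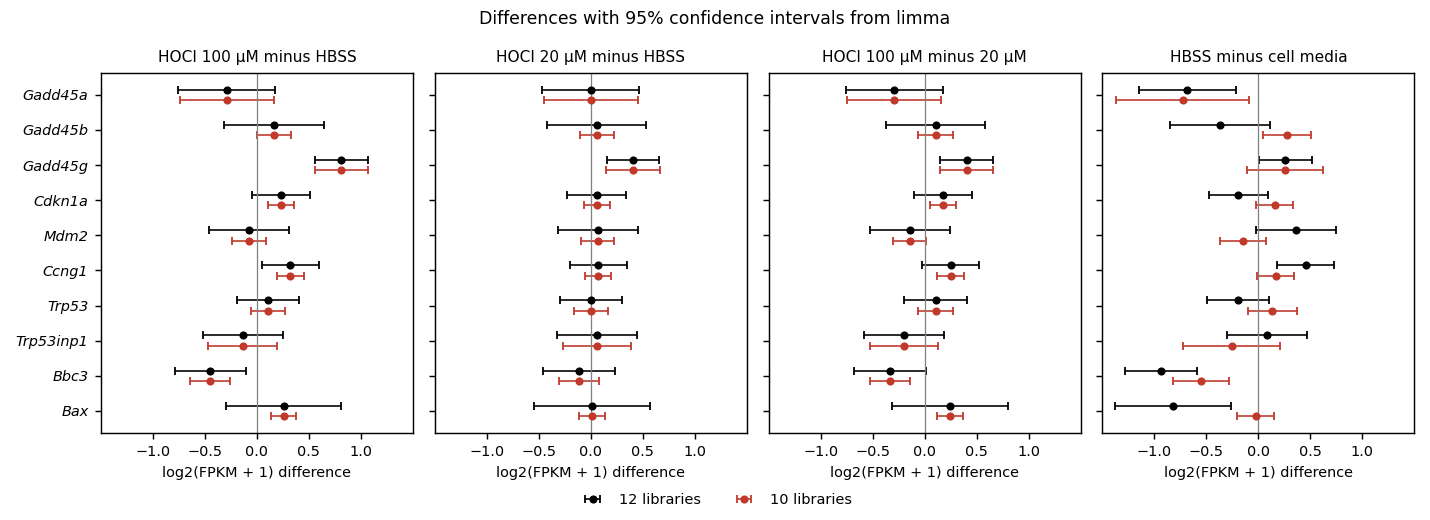
Log2 differences of FPKM + 1 with 95% confidence intervals from limma for the 10 members in 4 comparisons, the group named first minus the other. Black is the fit on 12 libraries and red that on 10, without cell media replicates 1 and 2. The interval of Gadd45g between 100 µM and HBSS is 0.56 to 1.06 on 12 libraries, and red and black points part in HBSS minus cell media, as for Bax.

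The comparison of HBSS with cell media concerns the vehicle without HOCl. Bbc3 had 10.6, 9.64 and 9.82 FPKM in HBSS, against 25.7, 20.6 and 15.1 in cell media, lower in every HBSS library (log2 difference −0.94, SE 0.16, limma adjusted p = 0.0711). Against cell media replicate 3 alone the difference was −0.55. Gadd45a had 65.5, 45.1 and 39.9 FPKM in HBSS, against 95.2, 63.9 and 82.0 in cell media (log2 difference −0.68, SE 0.21, limma adjusted p = 0.0711), and the difference was −0.73 against replicate 3 alone. Ccng1 and Gadd45g were higher in every HBSS library than in any cell media library. Ccng1 had 50.8, 56.4 and 56.6 FPKM in HBSS, against 32.1, 39.6 and 48.6 in cell media (log2 difference 0.46, and 0.17 against replicate 3 alone).

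For the other members the sign or size rested on cell media replicates 1 and 2. Bax had 49.3, 50.8 and 52.8 FPKM in HBSS, against 121, 119 and 51.8 in cell media, so that replicate 3 lay within the HBSS range. Its log2 difference was −0.82 (SE 0.25, limma adjusted p = 0.0711) on 12 libraries and −0.025 against replicate 3 alone. The log2 difference of Mdm2 was 0.36 on 12 libraries and −0.15 against replicate 3, that of Cdkn1a −0.19 and 0.16, that of Trp53 −0.20 and 0.13, that of Gadd45b −0.37 and 0.27, and that of Trp53inp1 0.083 and −0.26. On 12 libraries limma called 0 members, against 0.0166% of all genes (2 of 12026). In 2 members (Ccng1 and Gadd45g) every HBSS library was higher, as in 12.7% of all genes, and in 1 (Bbc3) lower, as in 8.91%. With cell media replicate 3 left out, limma called 8 members and 7852 of all genes, where the cell media group was made up of the 2 libraries unlike the rest. With limma on 10 libraries, cell media is 1 library that is assumed to vary like the other groups. There 0 members were called, and 3 members and 6.84% of all genes had an unadjusted p under 0.05, against 5 members and 40% of all genes on 12 libraries.

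In 4 lists of further genes of the pathway, limma called 0 genes in each of the 4 comparisons, on 12 or on 10 libraries, and limma-voom called 0. Of 30 further p53 targets, 25 passed the filter. Between 100 µM and HBSS, 12 of these had a log2 difference above 0 and 13 below, with a median of −0.044 against −0.006 over all genes, and 3 (Btg2, Gdf15 and Sesn2, all with values below 0) had an unadjusted p under 0.05 on 12 libraries and 10 on 10 libraries. Such a p was found for 7.76% of all genes on 12 libraries and for 32.2% on 10. Among the most abundant, Pmaip1, which encodes the BH3-only protein NOXA, had 25.1 ± 1.2 FPKM at 100 µM and 22.3 ± 0.7 in HBSS (log2 difference 0.16, SE 0.13). Plk2, a polo-like kinase gene, had 42.8 ± 2.7 FPKM at 100 µM and 47.7 ± 13.5 in HBSS. Ei24, a p53-induced gene of the endoplasmic reticulum, had 20.8 ± 0.7 at 100 µM and 19.5 ± 0.8 in HBSS (SD, n = 3 each).

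Of the 15 regulators of p53 that passed, 13 had a log2 difference below 0 between 100 µM and HBSS and 2 above, with a median of −0.085, and 0 had an unadjusted p under 0.05 on 12 libraries and 6 on 10. Mdm4, the partner of Mdm2 that inhibits p53, had 33.5 ± 10.1 FPKM at 100 µM and 52.6 ± 7.2 in HBSS (log2 difference −0.67, SE 0.42, limma adjusted p = 0.669). Rpl5 and Rpl11 encode ribosomal proteins that bind Mdm2 when ribosome assembly is disturbed. Rpl5 had 198.6 ± 11.5 FPKM at 100 µM and 201.6 ± 9.7 in HBSS, and Rpl11 had 239.7 ± 17.2 at 100 µM and 224.2 ± 10.3 in HBSS. Of 13 partners and downstream kinases of GADD45, 7 were above and 6 below 0, with a median of 0.037, and 1 (Pcna) had an unadjusted p under 0.05 on 12 libraries and 4 on 10. Pcna, the sliding clamp that GADD45 proteins bind, had 265.1 ± 13.9 FPKM at 100 µM and 216.5 ± 19.8 in HBSS (log2 difference 0.29, SE 0.11, limma adjusted p = 0.625). Mapk14, the p38 kinase downstream of MTK1, had 57.2 ± 1.6 FPKM at 100 µM and 52.9 ± 3.9 in HBSS, and the cyclin gene Ccnb1 had 38.9 ± 1.5 at 100 µM and 37.9 ± 1.6 in HBSS. Of 17 genes on the path that p21 acts on (cyclins, cyclin-dependent kinases and their inhibitors, pocket proteins, E2F factors and a MuvB subunit), 9 were above and 8 below 0, with a median of 0.015, and 1 (Cdkn1b) had an unadjusted p under 0.05 on 12 libraries and 7 on 10. The most abundant were the G1 cyclin gene Ccnd1, with 72.6 ± 3.3 FPKM at 100 µM and 60.95 ± 8.79 in HBSS, and its partner kinase gene Cdk4, with 57.9 ± 3.3 at 100 µM and 51.7 ± 2.8 in HBSS. The S-phase cyclin gene Ccna2 had 56.5 ± 0.9 at 100 µM and 54.2 ± 2.8 in HBSS.

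The genes closest to a member in pattern were found by the root mean square distance between log2 profiles, each centred and divided by its own SD, over 12 libraries. Closest to Gadd45g was Dyrk3, a dual-specificity kinase gene, at a distance of 0.224, followed by Rnf19b at 0.36 and H3f3b at 0.387. Dyrk3 had 2.23 ± 0.08 FPKM at 100 µM and 1.504 ± 0.098 in HBSS (SD, n = 3 each), with 1.80 ± 0.06 at 20 µM and 1.20 ± 0.10 in cell media. Over the 10 libraries Dyrk3 and Rnf19b were again the closest pair, at 0.242 and 0.281. Closest to Gadd45a over 12 libraries were Lonp1 at 0.143, Leprotl1 at 0.158 and Sqor at 0.18, to Gadd45b Fbxw8, Mrps23 and Dbi at 0.126 to 0.179, and to Cdkn1a Tmem37, Psmf1 and Ndufa8 at 0.18 to 0.235. Leprotl1 for Gadd45a and Fbxw8 for Gadd45b were also among the closest 3 over 10 libraries, and for Cdkn1a none was, with Gsn, Cd14 and Nt5c3b in their place. The profiles share libraries and depth, and the distances carry no test.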

How the data were processed

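Messenger RNA of J774A.1 cells was sequenced in 12 libraries, and the authors deposited one table of FPKM values per gene. Reads were handled with HISAT2, featureCounts and GRCm39, per the submitters' processing notes. Tool versions, annotation and strand setting are not given in the sources used here. Of the 2 instruments in the labels' protocols, none is tied to a library. Symbols and exon lengths came from GENCODE M21 (28302 of 28977 IDs matched). Promoter windows are from RefSeq on GRCm38.p6, a build other than the authors'. Without a known strand setting, reads of antisense genes cannot be separated: E230016M11Rik shares 19.1% of the Gadd45a exon bases (at most 0.511 FPKM) and AC167363.2 shares 7.68% of those of Cdkn1a (at most 0.755 FPKM). Gm45808 shares 12.2% of the Bax exon bases on the same strand.

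Genes with at least 1 FPKM in at least 3 libraries (12026) were fitted on log2(FPKM + 1), which understates changes of low genes, with limma 3.58.1 in R 4.3.3. One model held all 12 libraries, a mean per group and a mean-variance trend. The two-sided p-values were adjusted by Benjamini-Hochberg over the 12026 genes, and a gene was called at an adjusted p under 0.05. The fit was first run on simulated log2 values with known changes and independent noise, without the unlike spread of the cell media libraries. Its outcome is not given here, and no result above rests on it. Members and lists were chosen with earlier results of these data known. Named are all members, called genes of a list, the 3 most abundant kept genes of each list and, for the GADD45 genes and Cdkn1a, the 3 closest profiles; genes named at an unadjusted p and Trp53-ps were picked with their values in view. Other settings covered pseudocount, low-value filter, scaling, samples in the model, a replicate block, the trend, limma-voom and each library left out. Removal of the exon length trend (loess, span 0.5) was chosen after seeing the data. Python 3.11.15, numpy 2.4.6, pandas 2.3.3 and matplotlib 3.10.9 were used.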

Additional observations from a re-analysis of the deposited data

How the results depend on the processing

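Between 100 µM HOCl and HBSS all 248 alternative values of the members kept their sign, and 243 moved by less than 1 SD between replicates. Between 100 µM and 20 µM this was so for all 238. Many of these values could not move, because each is a difference of group means. The filter, the mean-variance trend, a replicate block and libraries of other groups change only its error. Gadd45a between 100 µM and HBSS, for example, stood at −0.293 under all of these. The counts therefore include values that were fixed in advance. Between 20 µM and HBSS the sign turned in 11 of 238, and between HBSS and cell media in 13 of 238. The limma adjusted p of Gadd45g between 100 µM and HBSS ranged from 0.015 to 0.738 over its alternatives, and its log2 difference from 0.70 to 1.03. The filter at a mean of 5 FPKM leaves out Gadd45g and Trp53inp1.

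Counts of called members moved as follows. For 100 µM against HBSS there was 1 on 10 libraries (Gadd45g), against 0, beside 29 of all 12026 genes. With a replicate block on 10 libraries there were 5 (Bax, Bbc3, Ccng1, Cdkn1a and Gadd45g), beside 2979 of all 12026 genes. For 100 µM against 20 µM there were 4 with that block, against 0, beside 2088 of all 12026 genes. Between HBSS and cell media, against 0, there was 1 (Bbc3) with a replicate block on 12 libraries, beside 193 of all genes. With 1 library left out there were 0 to 8, and the 8 without cell media replicate 3 stood beside 7852 of all genes.

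Counts over all genes moved too. For 100 µM against HBSS they were 1 with no filter, 2 in a model of the 2 groups, 29 on 10 libraries, 2979 on 10 libraries with a replicate block, and 0 to 5 with 1 library left out, against 0. For 20 µM against HBSS there were 6 with no filter, against 0. For 100 µM against 20 µM there were 11 with no filter, 1 in a model of the 2 groups, 2088 on 10 libraries with a replicate block, and 0 to 1 with 1 library left out, against 0. Between HBSS and cell media, against 2, there were 1 with a pseudocount of 0.5 or a mean of 5 FPKM, 5 with no filter or no trend, 4 with quantile normalization or limma-voom, 193 with a replicate block, 0 in a model of the 2 groups and on 10 libraries with or without the block, and 0 to 7852 with 1 library left out (7852 without cell media replicate 3). There the median of the p53 targets was 0.15 and that of the p53 regulators 0.30, and on 10 libraries, with cell media replicate 3 alone, −0.073 and −0.047. The cause of these shifts was not tested.

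The replicate numbers were not shown to pair the samples. Deviations from the group means correlated at 0.264, 0.075 and −0.0254 between same-numbered libraries of HBSS and 100 µM. Libraries of these groups with different numbers gave −0.26 to 0.205. For 20 µM and 100 µM the same-numbered values were 0.377, 0.0546 and 0.414, and the others ran from −0.408 to 0.0794. For HBSS and 20 µM they were 0.351, −0.0623 and 0.123, and the others ran from −0.343 to 0.284. For cell media and 100 µM they were −0.294, 0.162 and −0.417, and the others ran from −0.495 to 0.501. Among the members, replicate 1 stood at the same extreme of the HBSS, 20 µM and 100 µM groups for several genes. It was the highest for Gadd45a, Mdm2 and Trp53inp1, and the lowest for Ccng1, Cdkn1a, Trp53 and Bax.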
